A study of Sus scrofa with 8 samples.

Results

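The MHC class II genes of the pig oviduct were examined 24 h after insemination with Y-bearing or X-bearing spermatozoa. The members were SLA-DRA, SLA-DRB1, SLA-DQA1, SLA-DQB1, SLA-DMA, SLA-DMB, SLA-DOA, CD74 and CIITA. All probe sets whose single gene symbol in the platform annotation was one of these 9 genes were taken, which gave 12 probe sets of the 23999 tested on the array (9 of 6790 named genes). SLA-DRB1 had 3 probe sets and SLA-DMA had 2, numbered here in the order of their identifiers, and each of the other 7 genes had 1. The study asked whether the oviduct responds differently to Y- and to X-spermatozoa, and laparoscopic insemination placed flow-sorted Y-spermatozoa in one oviduct and X-spermatozoa in the contralateral oviduct of 4 sows. The sows were weaned Landrace × Large White crossbred animals in oestrus that had not ovulated, their uterine horns had been closed with staples, and their age was not given in the sources used here. RNA of the scraped oviductal cells was hybridised to 1 Affymetrix Porcine array per oviduct, without pooling, giving 4 Y-spermatozoa arrays (Y1 to Y4) and 4 X-spermatozoa arrays (X1 to X4), and the number after the letter names the sow. There was no oviduct without spermatozoa among the 8 arrays, so the 2 kinds of sperm were set against each other and not against an untreated oviduct.

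MHC class II molecules (swine leukocyte antigens, SLA, in the pig) present peptides from the endocytic pathway to CD4 T cells. The DR and DQ alpha and beta chains form the classical heterodimers at the cell surface, with SLA-DRA and SLA-DQA1 encoding alpha chains and SLA-DRB1 and SLA-DQB1 encoding beta chains. CD74, the invariant chain, chaperones new class II dimers and blocks their groove, DM (from SLA-DMA and SLA-DMB) exchanges the invariant chain remnant for peptide, and DO, whose alpha chain comes from SLA-DOA, restrains DM in human and mouse. CIITA is the transactivator that switches the family on, by default in dendritic cells, B cells and some macrophages, and in many other cells after interferon gamma.

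All values are linear signals scaled by the authors to one trimmed mean per array, with no unit of their own. Signals of different probe sets are not a measure of which gene was more abundant, because probes differ in how they bind, and where a list's brightest genes or summed signal are given they only describe the arrays. Each array's background level was the 95th percentile of the 81 probe sets with no pig target, and it lay between 8.5 and 10.7 in the Y-spermatozoa arrays and between 10.3 and 12.3 in the X-spermatozoa arrays. Above it on all 8 arrays were 8 of the 12 class II probe sets (66.7%), against 65.5% of all probe sets tested. These 8 covered SLA-DRA, SLA-DRB1, SLA-DQA1, SLA-DQB1, SLA-DMA, SLA-DMB and CD74, so 7 of the 9 genes. Bright signals came from the epithelial transcripts OVGP1, the oviductal glycoprotein, at 8674 ± 676 with Y-spermatozoa and 7159 ± 1170 with X-spermatozoa, and EPCAM, at 3332 ± 319 and 3126 ± 204 (SD, n = 4 each, Y-spermatozoa first, before normalisation). After quantile normalisation their log2 differences were 0.02 for OVGP1 (exact permutation p = 0.886) and -0.01 for EPCAM (exact permutation p = 0.914). That step gives the same value to probe sets of the same rank, so it can remove a difference in such bright probe sets. Whether their levels differed is therefore not shown by these values. In such scraped tissue, fewer class II-bearing cells and less class II RNA per cell cannot be told apart.

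None of the class II genes differed between oviducts with Y-spermatozoa and oviducts with X-spermatozoa beyond the spread between arrays. At an unadjusted limma p of 0.05, 0 of 12 were called, where 3.56% of all probe sets were, and no probe set of the array passed the Benjamini-Hochberg adjustment (0 of 23999, with 855 called before it, and 2 by a plain test without moderation, of which 0 were class II). The adjusted limma p of each member was 1, so beside each difference stand its limma SE and interval and the p of a two-sided exact permutation test over the 70 relabellings of the arrays, which cannot go below 0.0286 and ignores the pairing by sow. With the sow as a block, again 0 of 12 passed, against 5.09% of all probe sets. No class II probe set lay on the same side in all 4 sows, against 13.2% of all probe sets. In each of the 12 the signals of the 2 groups overlapped, and they did not in 2.07% of all probe sets.

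**Figure D1:**
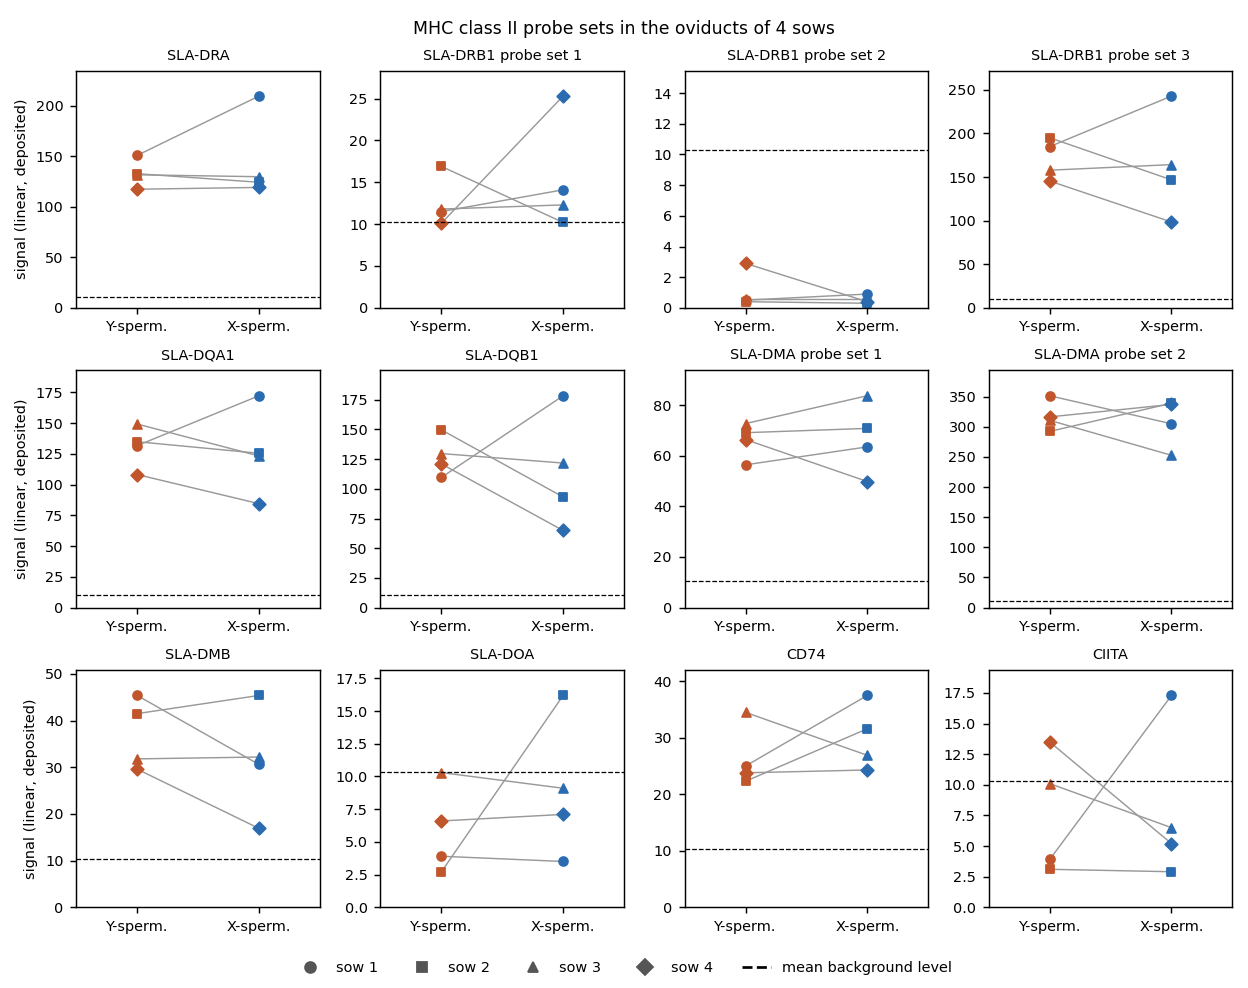
Deposited linear signal (vertical axes, each from 0) of the 12 MHC class II probe sets in oviducts with Y-spermatozoa (left) and X-spermatozoa (right), 1 point per array. Symbols and grey lines join the 2 oviducts of a sow, and dashes mark the background, 10.3 on average. Within every panel the groups overlap and the lines do not all run one way, and SLA-DRB1 probe set 2 stays below the background on every array.

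SLA-DRA, the alpha chain of DR, had signals of 151.0, 132.9, 131.8 and 117.5 in Y1 to Y4, against 209.8, 124.4, 129.9 and 119.3 in X1 to X4. Its means were 133 ± 13.7 with Y-spermatozoa and 146 ± 42.9 with X-spermatozoa (SD, n = 4 each), and the X-spermatozoa array of sow 1 alone stood above the rest. The log2 difference, Y minus X, was -0.09 (SE 0.20, 95% interval -0.55 to 0.37, exact p = 0.857), which as a fold ran between 0.684 and 1.29. Without X1 the log2 difference turned to 0.10.

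SLA-DRB1, which encodes the polymorphic DR beta chain, was above background on all arrays in its probe set 3. It gave 184.8, 195.0, 157.8 and 145.4 in Y1 to Y4, against 242.8, 146.7, 164.2 and 98.4 in X1 to X4. Both the highest and the lowest signal thus came from X-spermatozoa arrays, and the 4 Y-spermatozoa signals lay between them. The means were 171 ± 23.1 with Y-spermatozoa and 163 ± 60.0 with X-spermatozoa (SD, n = 4 each), and the log2 difference was 0.13 (SE 0.26, 95% interval -0.48 to 0.75, exact p = 0.714). Without X4 it was -0.08 and without X1 it was 0.35.

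The other 2 SLA-DRB1 probe sets carried little signal. Probe set 1 gave 11.5, 16.9, 11.8 and 10.1 in Y1 to Y4 and 14.1, 10.2, 12.3 and 25.3 in X1 to X4, above the background on 5 of 8 arrays, with a log2 difference of -0.16 (SE 0.31, exact p = 0.714). X4, the lowest array for probe set 3, was the highest for this one, so the probe sets of the gene disagreed. Probe set 2 stayed below the background on all 8 arrays, at 0.4 to 2.9 in the Y-spermatozoa arrays and 0.3 to 0.9 in the X-spermatozoa arrays, and no fold is given. A further 3 probe sets carry the SLA-DRB1 symbol together with a second one and were not counted as members. Of these, the 1 above background on all arrays averaged 77.3 ± 9.0 with Y-spermatozoa and 65.9 ± 18.0 with X-spermatozoa (SD, n = 4 each), with a log2 difference of 0.28 (SE 0.20, exact p = 0.257).

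The DQ pair showed the same order of arrays at its ends. SLA-DQA1, the DQ alpha chain, had signals of 131.7, 134.9, 149.3 and 108.2 in Y1 to Y4, against 172.3, 125.5, 123.3 and 84.5 in X1 to X4. X1 was again the highest array and X4 the lowest. The means were 131 ± 17.0 with Y-spermatozoa and 126 ± 35.9 with X-spermatozoa (SD, n = 4 each), and the log2 difference of 0.10 (SE 0.22, 95% interval -0.41 to 0.61, exact p = 0.714) was well inside its error. Leaving out X4 turned it to -0.07.

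SLA-DQB1, the DQ beta chain, varied most among the 4 detected DR and DQ probe sets, 2.75-fold over the 8 arrays. Its signals were 109.6, 149.7, 129.7 and 121.0 in Y1 to Y4, against 178.4, 93.1, 121.7 and 64.9 in X1 to X4. The 4 Y-spermatozoa signals lay between 109.6 and 149.7, with X1 above that band, X2 and X4 below it and X3 inside it. The means were 128 ± 16.9 with Y-spermatozoa and 115 ± 48.5 with X-spermatozoa (SD, n = 4 each), with a log2 difference of 0.25 (SE 0.29, 95% interval -0.43 to 0.93, exact p = 0.486). Leaving out X1 raised that difference to 0.50 and leaving out X4 lowered it to 0.02, so these 2 arrays set its size.

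Of the genes for peptide loading, SLA-DMA was measured by 2 probe sets. Probe set 2 gave 351.6, 292.4, 310.8 and 316.5 in Y1 to Y4, against 305.0, 339.2, 252.7 and 337.2 in X1 to X4, the steadiest of the 8 detected probe sets at 1.39-fold from lowest to highest. Probe set 1 gave 56.4, 69.1, 72.7 and 66.4 in Y1 to Y4, against 63.5, 70.8, 83.7 and 49.8 in X1 to X4. The log2 differences were 0.05 (SE 0.13, 95% interval -0.26 to 0.36, exact p = 0.743) for probe set 2 and 0.02 (SE 0.17, 95% interval -0.38 to 0.42, exact p = 0.943) for probe set 1. While neither passed the test between the groups, the 2 probe sets of SLA-DMA ran against each other over the 8 arrays (Pearson r = -0.73), X3 being lowest for probe set 2 and highest for probe set 1.

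SLA-DMB, the DM beta chain, had signals of 45.4, 41.5, 31.8 and 29.6 in Y1 to Y4, against 30.6, 45.4, 32.2 and 16.9 in X1 to X4. It averaged 37.1 ± 7.6 with Y-spermatozoa and 31.3 ± 11.7 with X-spermatozoa (SD, n = 4 each). After normalisation 3 of 4 sows were higher on the Y side. Of these, sow 3 was higher by a log2 difference of only 0.04, and its deposited signal was lower on the Y side (31.8 against 32.2). Its log2 difference, 0.35 (SE 0.31, 95% interval -0.38 to 1.07, exact p = 0.429), was the largest among the 8 detected probe sets and fell to 0.08 when X4 was left out. SLA-DOA, the DO alpha chain, was above background on 1 array of each group, at 2.7 to 10.3 with Y-spermatozoa and 3.5 to 16.2 with X-spermatozoa, so only an upper bound near the background level can be given for most of its arrays (exact p = 0.486).

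CD74 gave signals of 25.0, 22.3, 34.5 and 23.8 in Y1 to Y4, against 37.5, 31.6, 26.9 and 24.3 in X1 to X4. It averaged 26.4 ± 5.5 with Y-spermatozoa and 30.1 ± 5.8 with X-spermatozoa (SD, n = 4 each), with a log2 difference of -0.15 (SE 0.19, 95% interval -0.59 to 0.30, exact p = 0.457). After normalisation its sows split evenly, 2 higher and 2 lower with Y-spermatozoa. Sow 4 was higher by a log2 difference of only 0.02, and its deposited signal was lower on the Y side (23.8 against 24.3). CIITA reached the background level on few arrays, with 3.9, 3.1, 10.1 and 13.5 in Y1 to Y4 and 17.3, 2.9, 6.5 and 5.2 in X1 to X4. Above background were 2 Y-spermatozoa arrays and 1 X-spermatozoa array (X1), and no difference in the transactivator was detectable at this signal (exact p = 0.914).

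**Figure D2:**
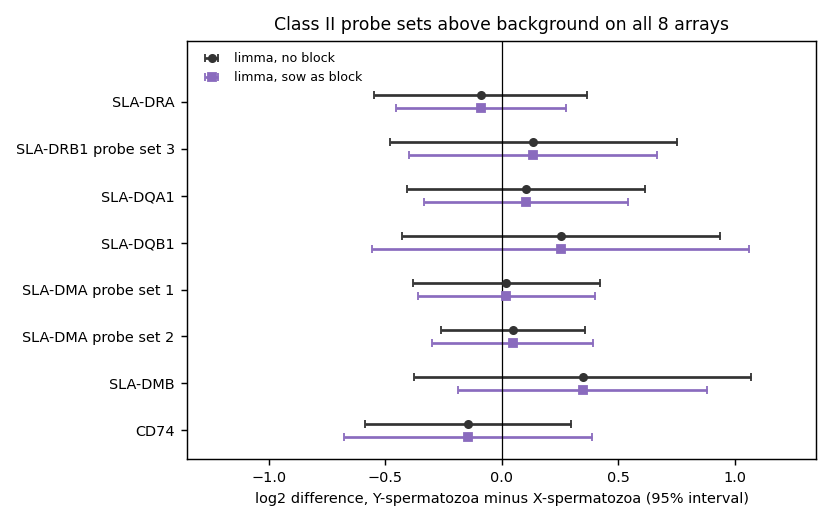
Log2 difference, Y-spermatozoa minus X-spermatozoa (horizontal axis), of the 8 class II probe sets above background on all arrays, with 95% intervals from limma without a block (circles) and with the sow as a block (squares), n = 4 sows. All 16 intervals cross 0, and the estimates lie between -0.15 and 0.35.

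Over the 8 detected probe sets, 6 log2 differences were above 0 and 2 below, between -0.15 for CD74 and 0.35 for SLA-DMB. Without X4 the count turned to 3 above and 5 below. Their unadjusted limma p-values ran from 0.300 to 0.915 and with the sow as a block from 0.152 to 0.900. The median over the 12 class II probe sets was 0.07 and that over all probe sets tested 0.00, while the class II median turned to -0.03 without X4 and was 0.18 without X1. The median absolute difference was 0.12 for the 8 detected ones and 0.14 for all probe sets tested. The latter include probe sets not above background on every array, so the 2 sets are not alike. The 95% limits of the 8 reached a fold of 0.664 at the lowest (CD74) and 2.10 at the highest (SLA-DMB), so changes inside these limits were not excluded at this number of arrays.

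After normalisation, the differences between the oviducts of one sow changed sign from sow to sow, and their medians were far from 0 in sows 1 and 4 only. In sow 1, 6 of the 8 detected probe sets were lower on the Y side, with a median log2 difference of -0.40. All 4 DR and DQ probe sets were among them, at -0.48 for SLA-DRA, -0.41 for SLA-DRB1, -0.38 for SLA-DQA1 and -0.69 for SLA-DQB1. In sow 4 the picture was turned, with 6 of 8 higher on the Y side and a median of 0.40, and SLA-DQB1 at 0.90, SLA-DMB at 0.85 and SLA-DRB1 at 0.57 led. Sow 2 was evenly split, 4 higher and 4 lower (median 0.04), although all 4 of its DR and DQ probe sets were higher, led by SLA-DQB1 at 0.69. Sow 3 had 6 higher and 2 lower but a median of only 0.08. Over all probe sets the median was 0.00 in each sow. With 1 array per oviduct, a difference within one sow had no replicate and was not tested.

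**Figure D3:**
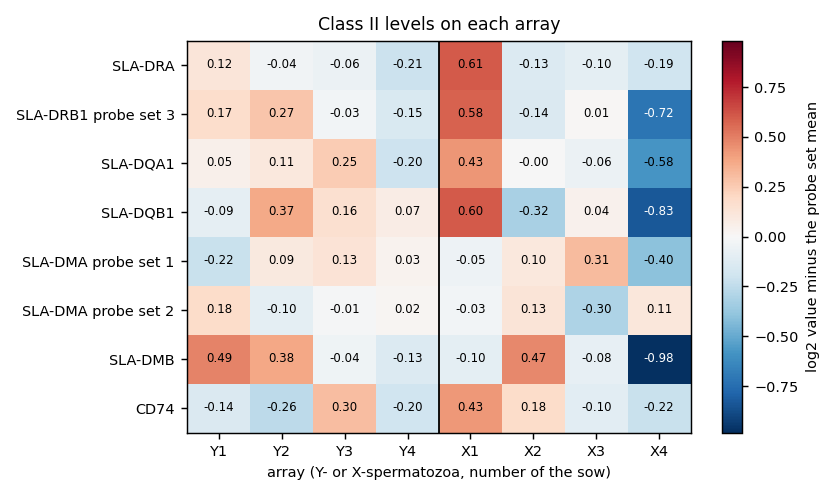
Normalised log2 level of the 8 detected class II probe sets (rows) on each array (columns, Y-spermatozoa left of the line and X-spermatozoa right of it), as the difference from the probe set's mean over the 8 arrays. The DR and DQ rows are highest in X1 (0.43 to 0.61) and SLA-DRB1, SLA-DQA1, SLA-DQB1 and SLA-DMB are lowest in X4 (-0.58 to -0.98).

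Class II levels were more scattered among the X-spermatozoa arrays than among the Y-spermatozoa arrays. The SD of the normalised log2 values was larger in the X-spermatozoa group for 8 of 8 detected probe sets, against 40.7% of all 15727 probe sets above background on all arrays. The median SD of the class II probe sets was 0.19 with Y-spermatozoa and 0.40 with X-spermatozoa, while that of all detected probe sets was 0.24 with Y-spermatozoa and 0.21 with X-spermatozoa. The count fell to 6 of 8 without X1, where SLA-DRA and CD74 turned, to 7 of 8 without X3, where SLA-DMA probe set 2 turned, and to 7 of 8 without Y1 or Y4, where CD74 turned. SLA-DQB1 had an SD of 0.19 with Y-spermatozoa and 0.60 with X-spermatozoa, and CD74, with 0.25 and 0.29, showed the smallest gap. This comparison was chosen after the values were seen, the probe sets share the same arrays, X1 or X4 was the highest or lowest array for 7 of the 8, and it was not tested.

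The 4 DR and DQ probe sets moved together over the arrays. Their 6 pairs had Pearson correlations of 0.63 to 0.92 (median 0.82) and Spearman correlations of 0.57 to 0.93 over 8 arrays. Leaving out 2 arrays, those farthest from the median of the pair's first gene, lowered the Pearson range to 0.30 to 0.82 (median 0.61). These were X1 and Y1 for the SLA-DRA pairs, which kept X4, and X1 and X4 for the other pairs. With SLA-DMA, SLA-DMB and CD74 the DR and DQ probe sets correlated by -0.46 to 0.71 in 16 pairs (median 0.42). Without 2 arrays chosen in the same way, the range was -0.52 to 0.58 (median 0.03). Those other members among themselves correlated by -0.73 to 0.46 in 6 pairs. These values are descriptive, since both oviducts of a sow entered them and all points share the array scaling.

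A class II level per array, the mean of the centred log2 values of the 8 detected probe sets, was 0.07, 0.10, 0.09 and -0.10 in Y1 to Y4, against 0.31, 0.04, -0.04 and -0.48 in X1 to X4. It holds both SLA-DMA probe sets, which ran against each other, so the members did not all follow it. Over the 4 DR and DQ probe sets alone the level was 0.06, 0.18, 0.08 and -0.12 in Y1 to Y4. In X1 to X4 it was 0.56, -0.15, -0.03 and -0.58. Of 5961 brighter probe sets with 1 symbol that were searched, the 5 whose levels over the 8 arrays followed the level of the 8 detected probe sets most closely were LMNA, which encodes the lamins A and C of the nuclear envelope (Pearson r = 0.976), LOC100739098 (r = 0.930), TBC1D20 (r = 0.929), GID8 (r = 0.899) and ALKBH5 (r = 0.898). A search of this size over 8 arrays picks out high r values by itself, so they do not show a link to class II. Without X1 and X4 these values dropped to 0.753, 0.696, 0.802, 0.603 and 0.682, in the same order of genes. LMNA itself averaged 54.7 ± 3.9 with Y-spermatozoa and 52.6 ± 11.8 with X-spermatozoa (SD, n = 4 each), with X1 highest at 66.7 and X4 lowest at 37.9.

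Genes that act upstream of class II were taken with 1 probe set per gene, the brightest, as in the other lists. In a list of class II transcription factors, 4 of 7 genes were measured, 0 passed the unadjusted test and the median log2 difference was 0.07. NFYC, a subunit of the NF-Y complex that binds the class II promoter, averaged 131 ± 18.7 with Y-spermatozoa and 129 ± 10.1 with X-spermatozoa, and NFYB 98.7 ± 13.0 and 89.6 ± 6.9. In the interferon gamma pathway to CIITA, 7 of 10 were measured, 0 passed and the median was 0.04 over the 4 genes above background on all arrays. A second, dimmer probe set of SOCS1, a suppressor of cytokine signalling, did pass before adjustment (limma, adjusted p = 1), with 10.0, 14.4, 16.9 and 14.7 in Y1 to Y4, against 6.4, 9.2, 9.0 and 14 in X1 to X4, of which X4 alone was above background. The brightest SOCS1 probe set averaged 15.2 ± 6.5 with Y-spermatozoa and 15.2 ± 1.9 with X-spermatozoa (SD, n = 4 each). Its brightest genes were JAK1, the receptor's kinase, at 1107 ± 122 with Y-spermatozoa and 1076 ± 59.7 with X-spermatozoa, and IFNGR1, a receptor chain, at 251 ± 41.6 and 233 ± 31.5 (SD, n = 4 each, Y-spermatozoa first). The interferon gamma gene itself, IFNG, was above background on 1 of 8 arrays, at 7.2 ± 4.2 with Y-spermatozoa and 4.6 ± 2.2 with X-spermatozoa.

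Downstream, 12 of 14 listed genes of class II antigen processing were measured, 0 passed and the median log2 difference was 0.08. LAMP1, a membrane protein of lysosomes, averaged 1519 ± 118 with Y-spermatozoa and 1399 ± 133 with X-spermatozoa, and CTSB, the protease cathepsin B, 1041 ± 114 and 961 ± 48.1. Of MHC class I and peptide loading, 13 of 17 were measured, 0 passed and the median was 0.05. B2M, the class I light chain, averaged 7130 ± 577 with Y-spermatozoa and 6220 ± 1025 with X-spermatozoa before normalisation, with a log2 difference of -0.04 after it (exact p = 0.771). As for OVGP1, the normalisation can remove a difference in so bright a probe set. SLA-2, a classical class I heavy chain whose probe set can also bind related sequences, averaged 2184 ± 577 with Y-spermatozoa and 2062 ± 521 with X-spermatozoa (log2 difference -0.02, exact p = 0.857). Of T cell costimulation, 5 of 7 were measured, 0 passed and the median was 0.04, or 0.12 over the 4 above background on all arrays, with ICAM1, an adhesion molecule for leukocytes, at 141 ± 44.3 and 123 ± 40.4 and CD58, a ligand of CD2, at 89.2 ± 8.7 and 87.3 ± 3.0 (Y-spermatozoa first, SD, n = 4 each).

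Genes of the T cells that read class II gave low signals, and 2 of the 6 measured receptor genes were above background on all arrays. Of the T cell receptors of class II, 6 of 8 listed genes were measured and 0 passed. CD4, the coreceptor for class II, lay below the background on all 8 arrays. CD247, a signalling chain of the T cell receptor, averaged 21.3 ± 6.4 with Y-spermatozoa and 19.2 ± 3.4 with X-spermatozoa, and CD3E 14.4 ± 6.5 and 16.6 ± 3.3. Of the T and NK cell list, 7 of 8 were measured, 2 of them above background on all arrays, and 0 passed, with a summed signal of 80.0 to 94.7 with Y-spermatozoa and 63.0 to 103.5 with X-spermatozoa. CD8A, the coreceptor for class I, was its brightest gene at 23.7 ± 5.5 with Y-spermatozoa and 20.6 ± 1.7 with X-spermatozoa, and CD3E followed.

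Markers of the cells that carry class II by default were set beside it. Of the macrophage and monocyte list, 7 of 10 were measured and 0 passed. Its median log2 difference was 0.26, or 0.19 over the 5 above background on all arrays. The summed signal was 243.2 to 426.8 with Y-spermatozoa and 196.3 to 332.0 with X-spermatozoa. C1QC, a chain of complement C1q, gave 143.1, 183.7, 102.3 and 102.6 in Y1 to Y4, against 162.8, 122.4, 112.5 and 75.2 in X1 to X4 (log2 difference 0.19, exact p = 0.571). AIF1, which encodes the macrophage protein IBA1, gave 49.9, 67.2, 61.3 and 44.8 in Y1 to Y4, against 59.1, 47.6, 46.2 and 37.3 in X1 to X4 (log2 difference 0.26, exact p = 0.200). X4 was the lowest array for both, as it was for SLA-DRB1, SLA-DQA1, SLA-DQB1 and SLA-DMB. Over the 8 arrays the class II level correlated with C1QC by r = 0.83 (Spearman 0.74) and with AIF1 by r = 0.81 (Spearman 0.90), and without X1 and X4 by r = 0.60 and 0.81. For the mean level of the 5 macrophage list genes above background on all arrays, r was 0.47, or 0.27 without X1 and X4. The part of macrophages in the class II levels was not tested. The 5 genes of the list above background on all arrays ranged in r from -0.07 to 0.83, with TYROBP, a signalling adaptor of myeloid cells, at 0.51, MRC1, the mannose receptor, at 0.13 and CD163, a haemoglobin scavenger receptor, at -0.07. Such r values also occurred outside this list. The class I gene SLA-3 had r = 0.81 (Spearman 0.84), B2M 0.76, OVGP1 0.70 and CANX, of the class I list, -0.85. For the mean level of the 13 class I list genes above background, r was 0.47, or 0.32 without X1 and X4. Before normalisation X4 was also the lowest array for SLA-3 (592.6), B2M (5005.1) and OVGP1 (5841.4).

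**Figure D4:**
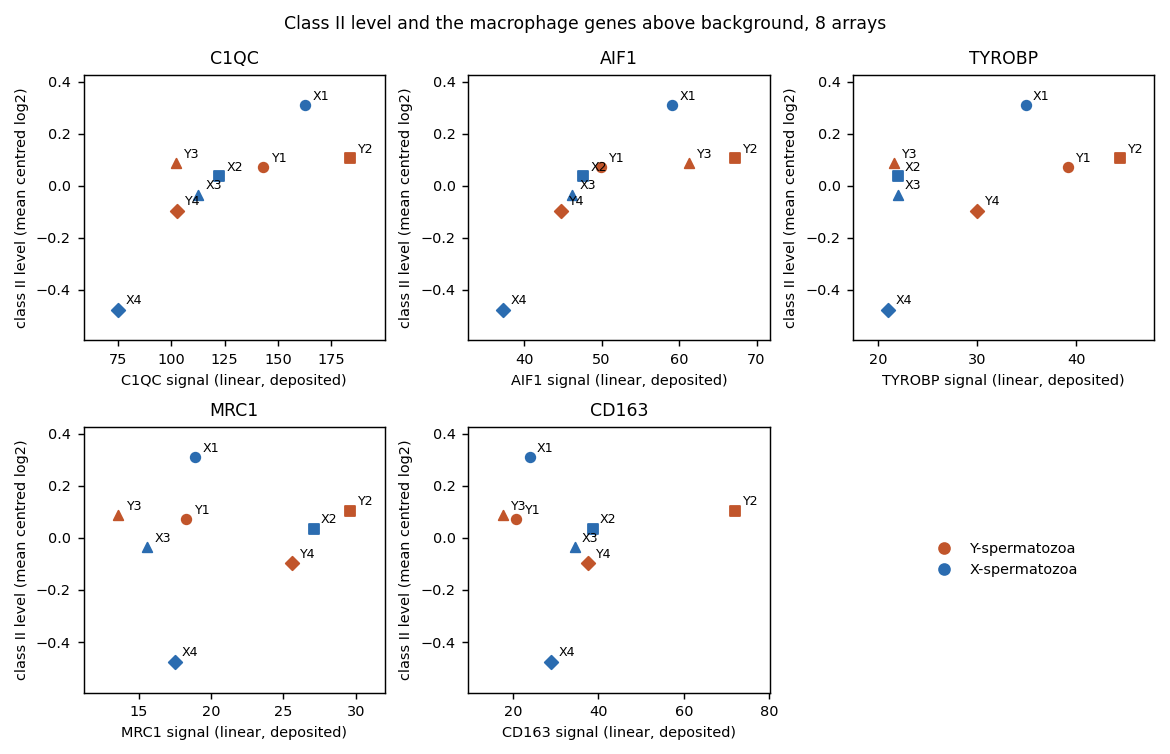
Class II level of each array (vertical axes, mean centred log2 of 8 probe sets) against the deposited linear signal (horizontal axes) of the 5 macrophage and monocyte genes above background on all 8 arrays. Labels name the array, with Y-spermatozoa arrays and X-spermatozoa arrays in different colours. X4 is lowest on both axes for C1QC and AIF1 (r = 0.83 and 0.81), while CD163 shows no such order (r = -0.07).

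Dendritic and B cell markers gave little to set beside class II. Of the dendritic list, 3 of 6 were measured, 0 passed, and the summed signal was 45.7 to 86.5 with Y-spermatozoa and 50.6 to 71.7 with X-spermatozoa. CD86 alone was above background on all arrays, with r = -0.47 to the class II level. CD86, a costimulatory ligand, averaged 42.5 ± 16.3 with Y-spermatozoa and 35.0 ± 11.7 with X-spermatozoa, and CD80, its relative, 13.8 ± 5.2 and 13.6 ± 2.5. Of the B cell list only CD79B, a chain of the B cell receptor complex, was measured, 1 of 5 genes. It was below the background on all arrays, at 0.8 to 4.7 with Y-spermatozoa and 1.6 to 6.0 with X-spermatozoa, and no fold is given.

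Among pan-leukocyte genes, the median log2 difference was 0.22, or 0.20 over the 3 above background on all arrays. Their summed signal was 145.5 to 172.7 with Y-spermatozoa and 133.1 to 146.7 with X-spermatozoa. Of these genes 4 of 4 were measured and 1 passed the unadjusted test. The 1 was PTPRC, the common leukocyte antigen CD45, with 12.1, 15.7, 8.8 and 9.8 in Y1 to Y4, against 9.2, 5.0, 6.8 and 7.6 in X1 to X4. It was higher on the Y side in 4 of 4 sows (exact p = 0.0571, adjusted limma p = 1), but Y1 and Y2 were its only arrays above background, so no fold is given. Its correlation with the class II level was r = 0.24.

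The remaining lists described the tissue. Of the oviduct epithelium list, 5 of 7 were measured, 0 passed and the median log2 difference was 0.06. Its summed signal ran from 15642.8 to 16124.0 with Y-spermatozoa and from 12721.9 to 15514.1 with X-spermatozoa, before normalisation, and the level of the list correlated with class II by r = -0.40. Of stroma and muscle, 5 of 7 were measured, 0 passed and the median was -0.09, or -0.28 over the 4 above background on all arrays, with VIM, the intermediate filament of mesenchymal cells, at 2785 ± 918 with Y-spermatozoa and 2595 ± 561 with X-spermatozoa, and ACTA2, smooth muscle actin, at 1773 ± 974 and 2403 ± 1032 (SD, n = 4 each). Of endothelium, 3 of 3 were measured, 0 passed and the median was 0.25. CDH5, a junction protein of endothelial cells, averaged 111 ± 45.8 with Y-spermatozoa and 90.2 ± 27.9 with X-spermatozoa, and PECAM1 94.9 ± 23.8 and 99.4 ± 13.2. With the sow as a block VWF of this list passed the unadjusted test, higher on the Y side in 4 of 4 sows (log2 difference 0.49, exact p = 0.200 without the pairing).

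Of the sperm list, 3 of 4 were measured, and PRM1, a protamine of sperm chromatin, passed the unadjusted test (adjusted limma p 0.883, exact p = 0.0286, the smallest possible). It lay below the background on all 8 arrays, at 2.4 ± 0.8 with Y-spermatozoa and 1.1 ± 0.2 with X-spermatozoa (SD, n = 4 each), and no fold is given. PRM2, the other protamine, averaged 11.6 ± 5.7 with Y-spermatozoa and 15.2 ± 4.2 with X-spermatozoa and did not pass (exact p = 0.571).

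**Figure D5:**
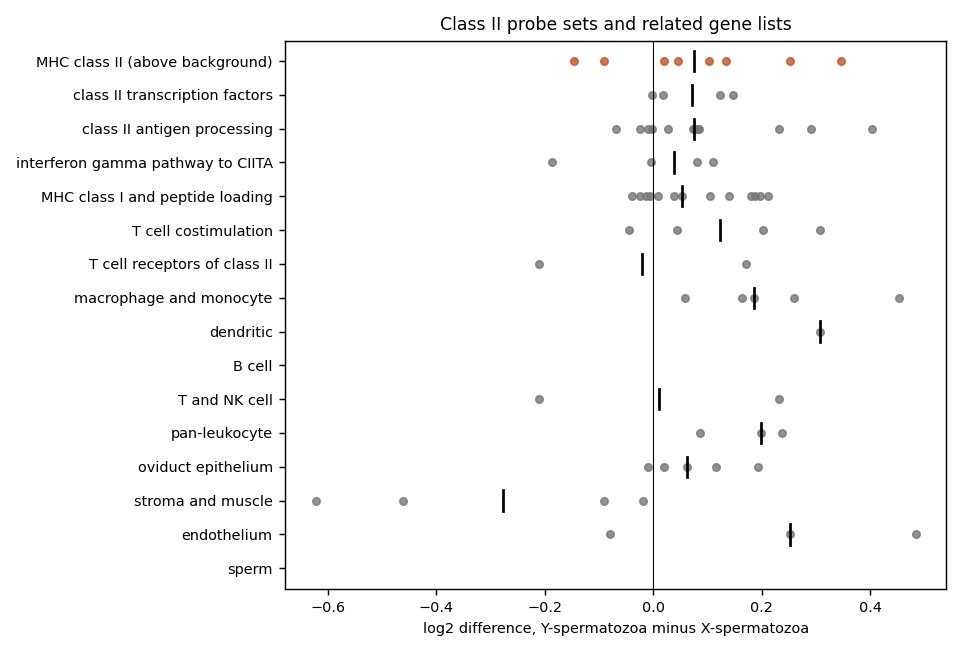
Log2 difference, Y-spermatozoa minus X-spermatozoa (horizontal axis), of the 8 detected class II probe sets (top row) and of the genes of each list that were above background on all 8 arrays, with the median as a bar over those points. Rows without points had no such gene. The class II points lie between -0.15 and 0.35, and none of the list genes shown passed the unadjusted test without a block.

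Technical measures moved with the groups. The background level was lower on the Y side in 4 of 4 sows, as was the share of probe sets below it, which was 23.4% to 26.1% with Y-spermatozoa and 24.8% to 27.1% with X-spermatozoa. The 27 spiked hybridisation controls averaged 10.06, 9.82, 9.97 and 9.93 on the log2 scale in Y1 to Y4, against 9.65, 9.82, 9.71 and 9.75 in X1 to X4, so they were higher on the Y side in 3 of 4 sows. With that average as a covariate, again 0 of the 12 class II probe sets passed. The average, 9.82 to 10.06 with Y-spermatozoa and 9.65 to 9.82 with X-spermatozoa, nearly separated the groups. The fit could thus hardly tell group from covariate, and the sizes it gave are uncertain. The class II median then was 0.24. The log2 difference was 0.95 for SLA-DQB1, 0.54 for SLA-DRB1 probe set 3 and 0.31 for SLA-DQA1. It was 0.14 for SLA-DMB and -0.21 for SLA-DMA probe set 2. Of the 8 detected probe sets, 6 were above 0 and 2 below. Fitted values were -1.73 for SLA-DOA and 0.99 for CIITA, both mostly below background.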

How the data were processed

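Each array's deposited column holds linear intensities, which the authors computed in Microarray Suite (MAS5) 5.1 per the labels and scaled to a trimmed mean of 100.0. The methods describe RMA, which cannot be rebuilt from these signals. No genome build or probe sequence was used. Here the 8 arrays were quantile normalised, values under 1 were set to 1, log2 was taken and limma 3.58.1 (R 4.3.3) was fitted with lmFit and eBayes to 23999 probe sets, Y-spermatozoa minus X-spermatozoa, two-sided, with Benjamini-Hochberg adjustment over all; 124 AFFX probe sets were left out of the test. Figures used Python 3.11.15 and matplotlib 3.10.9. Gene symbols came from the platform annotation (10140 probe sets with 1 symbol, 157 with several, 13826 without), and 10030 of the 10140 matched the RefSeq pig gene table by gene, with no symbol changed.

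The labels' replicate numbers and the study's design put both oviducts of a sow under one number, so these numbers pair the samples. As a check, the 2 arrays of a sow deviated together from their groups (r = 0.132 to 0.187). The highest r of a Y-spermatozoa array with an X-spermatozoa array of another sow was -0.025 to 0.023. Alternatives were the sow as a block or random block, median centring, the deposited scaling, a pseudocount of 16, brighter probe sets alone, eBayes with a trend, a plain test without moderation, hybridisation controls as a covariate, and each array or sow left out. On simulated data, 95.5% of the 200 probe sets given a log2 change of 1 had an unadjusted p under 0.05. Those 200 were all brighter than the median, and the simulated noise was independent between arrays, without pairing by sow. The share is an average over those 200, so it does not give the recovery for any single class II probe set. This applies to the dimmer SLA-DMB, CD74, SLA-DOA and CIITA, and also to brighter ones such as SLA-DQB1 (SE 0.29). Precision is limited by having 8 arrays. Added after the values were seen were the exact permutation test (70 relabellings), list medians over genes above background alone, and the spread with each array left out.

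The members and the 15 gene lists were chosen with earlier results of these data known. Named are every member, of each list the genes past an unadjusted p of 0.05 and otherwise the 2 brightest (1 probe set per gene, the brightest), and the 5 genes of most similar pattern. IFNG, CD4, VWF, PRM2, SOCS1, TYROBP, MRC1, CD163, SLA-3 and CANX fall outside this rule and were named after their values were seen.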

Additional observations from a re-analysis of the deposited data

Results flagged for a closer look

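One class II signal stood apart from its group. SLA-DRA in X1 reached 209.8, against 119.3 to 129.9 in the other 3 X-spermatozoa arrays. On the normalised log2 scale, the gap to the nearest of them took up 0.881 of the whole range of the group. The 8 detected class II probe sets were searched in both groups, 16 groups of 4 arrays in all, and chance alone marks about 1 in 20 such groups.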

How the results depend on the processing

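No class II probe set passed an unadjusted p of 0.05 under any of the 22 alternatives (252 refits, the lowest p, 0.0504, being that of CIITA in the replicate block fit without sow 1). The direction was kept in 225 refits, was exactly 0 in 2 and was reversed in 25. Deposited scaling turned CIITA to -0.010, and the hybridisation controls as a covariate turned SLA-DRA to 0.11, SLA-DRB1 probe set 1 to 0.29 and SLA-DMA probe set 2 to -0.21 on the log2 scale; the cause was not tested. With one array or sow left out at a time, log2 differences ran from -0.17 to 0.10 for SLA-DRA, -0.082 to 0.35 for SLA-DRB1 probe set 3, -0.49 to 0.22 for SLA-DRB1 probe set 1, -0.072 to 0.27 for SLA-DQA1, -0.12 to 0.12 for SLA-DMA probe set 1, -0.047 to 0.14 for SLA-DMA probe set 2, -0.87 to 0.15 for SLA-DOA and -0.35 to 0.83 for CIITA. SLA-DQB1 (0.02 to 0.57), SLA-DMB (0.08 to 0.56) and CD74 (-0.33 to -0.01) did not turn. The class II median, 0.07, ran from -0.03 (without X4) to 0.18 (without X1) with one array or sow left out. It was 0.24 with the hybridisation controls as a covariate, which nearly separated the groups, so the sizes from that fit are uncertain. Over all probe sets, 855 passed the unadjusted threshold, 1222 with the sow as a replicate block, 1459 with it as a random block and 311 when the 11999 brighter probe sets alone were tested. After adjustment 0 passed by limma, with or without the replicate block, against 1 with the random block and 2 by the plain test, and 0 to 4 with one array or sow left out. The block changed no class II call.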
